A study of Mus musculus with 2 samples.

Results

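Cardiomyocytes of the heart tube were examined in mouse embryos at embryonic day 9.5. They were taken as the cells with 200 to 6000 detected genes that held at least 1 unique molecular identifier (UMI, the tag that marks 1 captured RNA molecule) in 4 or more of 11 genes, which were Ttn, Myh6, Ryr2, Tnnt2, Ankrd1, Tnnc1, Ldb3, Trim55, Trdn, Nkx2-5 and Myl7. This rule selected 945 of 28179 cells. Of these, 494 of 15161 cells came from wild-type (Usb1+/+) embryos and 451 of 13018 from embryos labelled as Usb1 knockout (Usb1-/-, here Usb1-null). Whole embryos were dissociated and each genotype gave 1 droplet-based 3′ RNA library, so there were no replicates. The null allele is a germline deletion made with CRISPR/Cas9 and the embryos came from intercrosses of heterozygous mice, so all tissues of a null embryo carried the deletion, the heart and the rest alike. The labels name no transgene or treatment in either group, and how many embryos went into a library, and of what strain, is unstated in the sources used here. The labels call the molecule nuclear RNA, whereas the study's methods describe a suspension of single cells. USB1 is an exonuclease that shortens the tail of the spliceosomal U6 RNA, and the comparison asks how cells of the embryo differed without it.

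At this stage the heart is a beating, looping tube. Its muscle cells assemble sarcomeres from actin, myosin, troponin and titin, and they are driven by calcium that enters through channels and leaves through the sodium-calcium exchanger. GATA, NKX2-5, T-box, MEF2 and HAND factors together with the coactivator myocardin turn on the muscle genes. Regions of the tube are marked by their own genes, such as Myl2, Myh7 and Irx4 in the ventricle, Nppa in the ballooning chamber muscle, Nr2f2 in the atria, Tbx2, Tbx3 and Bmp2 in the atrioventricular canal, Hcn4 and Shox2 in the inflow where the pacemaker forms, and Isl1 and Bmp4 towards the outflow tract.

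Values in parentheses after a level, share or ratio are 95% intervals that cover counting error only, and with 1 library per genotype no difference between genotypes could be tested. The libraries differed in depth, which bears on every share of cells below. The wild-type library held 21751961 UMIs over 15162 barcodes and the Usb1-null library 33775852 over 13034. The median cardiomyocyte held 1556.5 UMIs and 1095.5 genes in wild-type and 2762 UMIs and 1736 genes in Usb1-null, and the cardiomyocytes together held 934910 and 1491880 UMIs. The libraries also differed in sex-linked transcripts. Xist gave 1776 UMIs in wild-type and 1 in Usb1-null cardiomyocytes, and the Y-linked Uty gave 0 and 469, Eif2s3y 0 and 266, Ddx3y 0 and 148, and Kdm5d 0 and 131. Against a floor of 3 UMIs in the wild-type cardiomyocytes, Uty was at least 98.0-fold higher in Usb1-null. Sex, depth and genotype cannot be told apart. Usb1 itself gave 1 UMI in wild-type and 2 in Usb1-null cardiomyocytes, a ratio of 1.25 (0.0652 to 73.9), and 67 and 45 UMIs in the other cells, a ratio of 0.438 (0.293 to 0.649). The deletion lies near the start of the gene, whereas 3′ libraries read its far end, so these counts do not check the labels. Tut1, which encodes the enzyme that lengthens the U6 end that USB1 trims, stood at 20.3 CPM in wild-type against 25.5 CPM in Usb1-null cardiomyocytes.

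Few cells lay at the edge of the rule. As the plot of rule genes per cell shows, most cells held 0 or 1 of the 11 genes, few held 3 or 4, and a second peak stood at 8 genes in wild-type and 9 in Usb1-null. Just outside the rule, 59 wild-type and 65 Usb1-null cells held exactly 3 of the genes, and just inside it 45 and 31 cells held exactly 4. Cardiac actin Actc1, which the rule did not use, stood at 324 CPM in the wild-type cells with 3 rule genes, 807 CPM in those with 4 and 1404 CPM over all wild-type cardiomyocytes, against 49.8 CPM in the other cells (CPM, UMIs per 1000000 UMIs summed over the cells named). In Usb1-null cells the same values were 143, 304, 676 and 25.8 CPM.

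**Figure D1:**
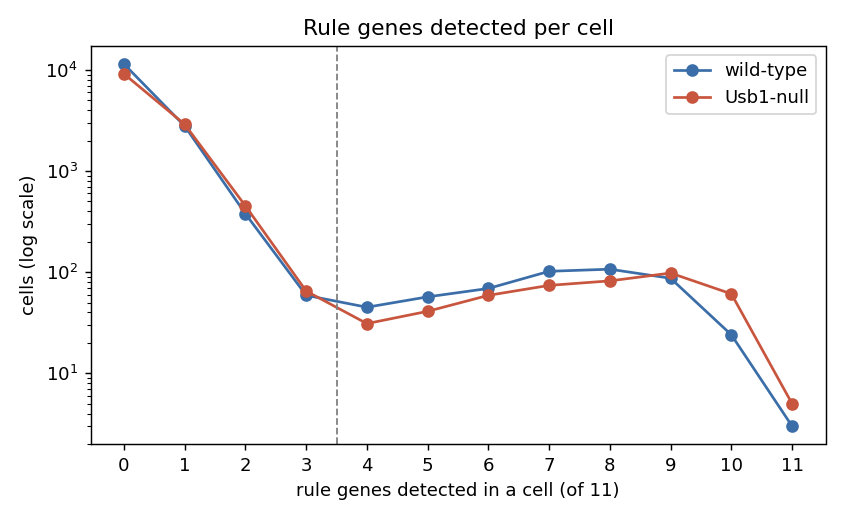
Number of cells (log scale) by how many of the 11 rule genes they held, in the wild-type and the Usb1-null library; the dashed line marks the lower limit of 4 genes. In both libraries the counts dip at 4 genes, with 45 wild-type and 31 Usb1-null cells, and rise again to 107 wild-type cells at 8 genes and 98 Usb1-null cells at 9.

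Muscle genes that the rule did not use were also high in these cells. By the smaller of the folds in both libraries, the 10 genes most enriched in these cells over the other cells were, in order, Slc8a1, 4930512H18Rik, Myocd, 5430431A17Rik, Mlip, Myh7, Myom1, Myo18b, Cacna1d and Mhrt. Slc8a1, the sodium-calcium exchanger, was 69.4-fold over the other cells in wild-type and 57.6-fold in Usb1-null, and it was the most abundant gene of all heart lists at 17900.1 CPM in wild-type against 14099.7 CPM in Usb1-null cardiomyocytes. Myocd, which encodes myocardin, was 48.5-fold and 44.4-fold over the other cells. Myom1, which encodes the M-band protein myomesin, was 41.2-fold and 36.7-fold, and Cacna1d, an L-type calcium channel, 36.6-fold and 38.7-fold. The 4930512H18Rik gene overlaps Palld and Mhrt overlaps Myh7, each on the opposite strand, and the strand setting of the counting is unstated in the sources used here. Because the cells were chosen on genes that move with these, the folds describe the cells and test nothing.

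Markers of most other cell types were lower in the cardiomyocytes than in the other cells, but not absent. The 12 myotome genes summed to 96.3 CPM in wild-type against 78.4 CPM in Usb1-null cardiomyocytes, and to 428 and 369.6 CPM in the other cells. Of these genes, 6 in wild-type and 7 in Usb1-null had UMIs in cardiomyocytes, Pax3 most with 52 and 94. The skeletal muscle factors Myod1, Myog and Myf6 had 0 in both, whereas Myf5, another such factor, had UMIs in both. The 13 genes of splanchnic and second heart field mesoderm, from which heart muscle arises, had a higher sum in the cardiomyocytes. It stood at 1424 CPM in wild-type against 1478 CPM in Usb1-null, beside 434 and 454 CPM in the other cells. Most of it was Mef2c, also listed below as a cardiac transcription factor, at 938 CPM in wild-type against 1005 CPM in Usb1-null cardiomyocytes. Fgf10 and Fgf8 were mixed, at 0.655-fold and 1.14-fold over the other cells in wild-type and 1.10-fold and 0.828-fold in Usb1-null. The sum therefore does not mark these cells as progenitors. At least 2 of the 13 genes were held by 37.7% of wild-type and 59.0% of Usb1-null cardiomyocytes, against 8.79% and 16.5% of the other cells. The 13 endothelial and endocardial genes summed to 205 CPM in wild-type against 301.0 CPM in Usb1-null cardiomyocytes, against 662 and 627 CPM in the other cells, and at least 2 of them were held by 4.05% of wild-type and 9.09% of Usb1-null cardiomyocytes. The 11 erythroid genes summed to 582 and 97.2 CPM, against 905 and 233 CPM in the other cells, and 10 cells among the wild-type cardiomyocytes held 63.3% of their Hbb-y UMIs. Scrublet, which scores cells for resemblance to simulated doublets, called 18.4% (15.1 to 22.1) of the wild-type cardiomyocytes and 15.5% (12.3 to 19.2) of the Usb1-null ones, against 7.16% and 4.98% of all cells. Each gene list below was also counted without the doublets and the cardiomyocytes that held at least 2 genes of another cell type. The libraries shared 61 barcodes, of which none was a cardiomyocyte in both.

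Cardiomyocytes made up 3.26% (2.98 to 3.55) of wild-type cells against 3.46% (3.16 to 3.79) of Usb1-null ones, a ratio of 1.06 (0.934 to 1.21). The order turned over at a fixed depth. After every cell was thinned to 500 UMIs the rule found 2.43% (2.19 to 2.69) of wild-type cells against 2.05% (1.81 to 2.31) of Usb1-null ones, with a ratio of 0.843 (0.717 to 0.989). At 1000 UMIs, which left out 4973 wild-type and 612 Usb1-null cells, the shares were 3.43% and 3.03%, a ratio of 0.885 (0.763 to 1.03). With 1 library per genotype and Usb1-null levels of several rule genes lower, no order of the shares was read from these values. Cardiomyocytes present in the embryo and cardiomyocytes captured cannot be told apart by a share.

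The 11 rule genes are given as a description, because they chose the cells. The giant sarcomere spring Ttn stood at 5212 CPM (5067 to 5361) in wild-type cardiomyocytes against 5609.7 CPM (5490.1 to 5731) in Usb1-null ones. The ryanodine receptor gene Ryr2, which releases calcium from internal stores, stood at 4630.4 CPM in wild-type against 4319 CPM in Usb1-null cardiomyocytes, and alpha myosin Myh6 at 3086 CPM in wild-type against 2605 CPM in Usb1-null cardiomyocytes. Their ratios of Usb1-null over wild-type were 1.08 (1.04 to 1.12), 0.933 (0.897 to 0.970) and 0.844 (0.804 to 0.886). The atrial light chain Myl7 stood at 710.2 CPM in wild-type against 326 CPM in Usb1-null cardiomyocytes, a ratio of 0.459 (0.407 to 0.516), the lowest of the 11. With 5 CPM added, the log2 ratio of Myl7 was -1.11 in cardiomyocytes and -1.10 in the other cells. Ankrd1, a stress-responsive partner of titin, had a ratio of 0.579 (0.524 to 0.641), Tnnt2, which encodes cardiac troponin T, 0.603 (0.538 to 0.675), and Trim55, a titin-bound ligase, 0.690 (0.619 to 0.770). Tnnc1, which encodes the calcium-binding troponin C, went the other way at 704 CPM in wild-type against 1036 CPM in Usb1-null cardiomyocytes, a ratio of 1.47 (1.34 to 1.61), and was found in 66.6% of wild-type and 84.0% of Usb1-null cardiomyocytes. At 1000 UMIs per cell these shares were 50.6% (45.6 to 55.7) and 58.7% (54.0 to 63.3), whose intervals overlap. Trdn, which encodes triadin of the calcium store, had a ratio of 1.35 (1.17 to 1.56), and Ldb3, which encodes a Z-disc protein, 0.886 (0.792 to 0.992). The homeobox gene Nkx2-5 was found in only 7.29% of wild-type and 7.10% of Usb1-null cardiomyocytes, so few cells were chosen through it. At 1000 UMIs per cell it was found in 4.58% (2.74 to 7.14) of wild-type cardiomyocytes against 2.46% (1.23 to 4.35) of Usb1-null ones. Its level had a ratio of 0.548 (0.338 to 0.885) on 40 and 35 UMIs, at least 1.5-fold lower with 5 CPM added, as for Myl7, Ankrd1 and Tnnt2 (4 of the 11 genes, against 6.08% of all counted genes), though its log2 ratio of -0.75 was under 1.5-fold with 20 CPM added, at -0.53, centred by gene length, at -0.58, and with equal weight per cell, at -0.53. Neural cells, which should lack these genes, held Ttn in 4.58% of wild-type and 7.85% of Usb1-null cells and Nkx2-5 in 0 of 612 and 0 of 930. Those neural cells had median depths of 1730.5 and 2803 UMIs.

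Over all 7823 genes with at least 50 UMIs in the cardiomyocytes of both libraries together, Usb1-null and wild-type levels were close. The log2 ratio, with 5 CPM added to both sides, had a median of 0.02 over genes and an SD of 0.41. A gene was called past the fold where the ratio of CPM plus 5 was at least 1.5 in either direction. In all, 378 genes (4.83%) were past it upward and 476 (6.08%) downward. Among the other cells of the embryo the same genes gave 96 and 202 calls, of which 62 upward and 143 downward calls were shared with the cardiomyocytes. This is 16.4% of the upward and 30.0% of the downward calls in cardiomyocytes, and 64.6% and 70.8% of those in the other cells.

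A general shift in short genes accompanied the comparison. Among the 453 counted genes under 5 kb the median log2 ratio was -0.37 in cardiomyocytes and -0.33 in the other cells, and 17 were past the fold upward and 130 downward. Among the 1516 genes of 50 to 100 kb it was 0.10 and 0.03. Ribosomal protein genes took 2.31% of wild-type and 1.63% of Usb1-null cardiomyocyte UMIs, and 2.69% and 1.92% of UMIs in the other cells. Mitochondrial transcripts took 0.506% and 0.236% of cardiomyocyte UMIs. The sarcomere list is therefore also given with ratios centred within bins of gene length.

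Genes of the sarcomere were lower in Usb1-null cardiomyocytes. Of the 46 genes of the sarcomere list, 36 were counted, with 0 past the fold upward (0%, against 4.83% of all genes) and 16 downward (44.4%, against 6.08%), with a median log2 ratio of -0.46 in cardiomyocytes and -0.33 in the other cells. Summed over the list, they stood at 21713 CPM in wild-type against 15592 CPM in Usb1-null cardiomyocytes, a ratio of 0.718 (0.705 to 0.732). Without doublets and cells with genes of other types the list median was -0.55, and centred within bins of gene length it was -0.48. Over all counted genes the median was 0.02.

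The thin filament actins were all past the fold downward. Actc1, the main actin of the embryonic heart (chr2:114047282-114053548, - strand, by the GENCODE annotation of GRCm38), stood at 1404 CPM (1329 to 1482) in wild-type cardiomyocytes against 676 CPM (635 to 719) in Usb1-null ones, a ratio of 0.481 (0.443 to 0.523). Skeletal actin Acta1 stood at 160.4 CPM (136 to 188) in wild-type cardiomyocytes against 55.0 CPM (43.7 to 68.2) in Usb1-null ones, a ratio of 0.343 (0.258 to 0.451), the lowest of the list. Smooth muscle actin Acta2, a transient actin of the early heart, had a ratio of 0.527 (0.472 to 0.588). These actins share nearly all of their coding sequence, and reads that match several of them could have been lost or split. Their ratios in the other cells were -0.83, -0.78 and -0.86 on the log2 scale, beside -1.05, -1.46 and -0.91 in cardiomyocytes.

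Myosin genes differed by isoform. Beta myosin Myh7 stood at 1345 CPM (1271 to 1421) in wild-type cardiomyocytes against 503 CPM (467 to 540.0) in Usb1-null ones, a ratio of 0.374 (0.341 to 0.410). Alpha myosin Myh6, its neighbour on chromosome 14, had a ratio of 0.844 (0.804 to 0.886). In the other cells the ratios of Myh7 and Myh6 were 0.331 (0.283 to 0.385) and 0.567 (0.507 to 0.635). Myh6 UMIs over Myh7 UMIs gave 2.30 (2.15 to 2.45) in wild-type against 5.18 (4.79 to 5.61) in Usb1-null cardiomyocytes. Myh6 is a rule gene and Myh7 is not, so this ratio is given as a description of the chosen cells. These genes are near-identical in their coding parts and the antisense transcript Mhrt overlaps Myh7, so the split is uncertain. Mhrt itself had a ratio of 1.14 (0.9502 to 1.38). Among the light chains, Myl2 of the ventricle had a ratio of 0.444 (0.388 to 0.508), Myl3 0.613 (0.523 to 0.718) and Myl4 0.603 (0.538 to 0.676). By contrast, the UMI ratio of Myl7, also a rule gene, to Myl2 was 1.26 (1.13 to 1.42) in wild-type and 1.31 (1.14 to 1.499) in Usb1-null.

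Regulatory and scaffold genes were mostly lower. Of the 36 counted genes of the sarcomere list, 33 had a log2 ratio below 0 and 3 above it. The troponin I genes Tnni1 and Tnni3 had ratios of 0.585 (0.507 to 0.676) and 0.582 (0.465 to 0.728), and Tnni1 held 2.34 times the UMIs of Tnni3 in wild-type against 2.35 times in Usb1-null. Tropomyosin Tpm1 stood at 1568 CPM in wild-type against 988 CPM in Usb1-null cardiomyocytes, a ratio of 0.630 (0.586 to 0.678). Csrp3, a Z-disc sensor, and Smpx, a small costamere protein, had ratios of 0.632 (0.485 to 0.823) and 0.559 (0.442 to 0.706). The chaperone genes Hspb1 and Cryab had ratios of 0.362 (0.258 to 0.504) and 0.463 (0.288 to 0.737). None of the counted genes with a higher level was past the fold. Among them, Nexn, which encodes the Z-disc protein nexilin, had a ratio of 1.15 (1.04 to 1.28) and Smyd1, a methyltransferase of myosin assembly, 1.04 (0.893 to 1.22). Nebl, which encodes nebulette, stood at 1324 CPM in wild-type against 1318 CPM in Usb1-null cardiomyocytes. Palld, the most abundant gene of the list, which encodes palladin, had a ratio of 0.730 (0.701 to 0.759).

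**Figure D2:**
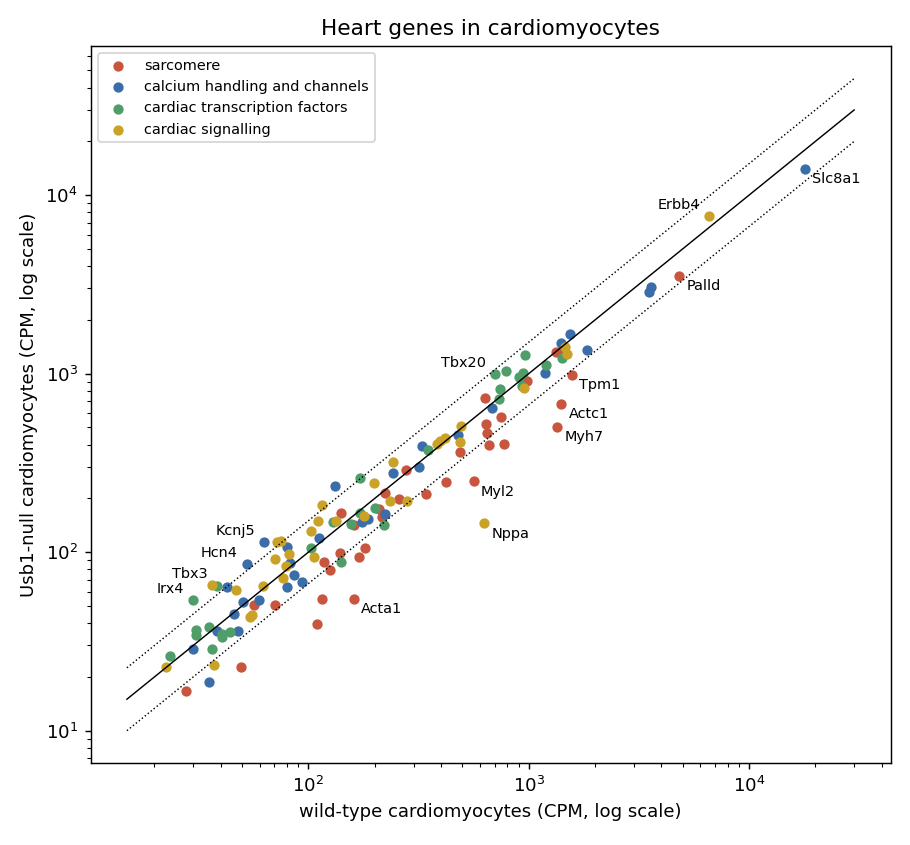
CPM of the counted genes of 4 heart lists in wild-type (x axis) and Usb1-null (y axis) cardiomyocytes, both on log scales; the solid line marks equal levels and the dotted lines 1.5-fold in either direction. Nppa, Acta1, Myh7, Myl2 and Actc1 lie below the lower line, and Hcn4, Kcnj5, Irx4 and Tbx3 above the upper one.

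The 250 bases before the start of 4 genes are shown. Nppa was the heart gene with the lowest ratio, and Actc1 is an abundant muscle gene that was lower. Myl7, which was lower, and Tnnc1, which was higher, are rule genes, so their levels only describe the cells they helped to choose. Tnnc1 was not past the fold. Sequences are from RefSeq (GRCm38.p6), 5′ to 3′ on the gene's strand. The start of Actc1 used here lies inside the longer GENCODE model of the gene given above, so its window falls within that model, while the other windows end at the base before the GENCODE gene. Capitals mark motif matches on either strand: AGATAA for GATA factors, AGGTGT for T-box factors, AAGTG for NK2 homeobox factors, and the CArG box of serum response factor. No 2 of the matches overlap.
Nppa, chr4:148000472-148000721, + strand: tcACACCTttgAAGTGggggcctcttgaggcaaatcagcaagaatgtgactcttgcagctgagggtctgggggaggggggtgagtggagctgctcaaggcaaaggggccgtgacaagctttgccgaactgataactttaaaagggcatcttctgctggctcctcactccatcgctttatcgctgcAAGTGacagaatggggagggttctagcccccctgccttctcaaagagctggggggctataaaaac
Myl7, chr11:5898783-5899032, - strand: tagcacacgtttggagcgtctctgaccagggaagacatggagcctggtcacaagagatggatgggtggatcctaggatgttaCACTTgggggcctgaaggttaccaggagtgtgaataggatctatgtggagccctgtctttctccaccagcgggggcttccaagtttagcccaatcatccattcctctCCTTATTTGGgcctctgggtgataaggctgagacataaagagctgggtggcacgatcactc
Actc1, chr2:114052876-114053125, - strand: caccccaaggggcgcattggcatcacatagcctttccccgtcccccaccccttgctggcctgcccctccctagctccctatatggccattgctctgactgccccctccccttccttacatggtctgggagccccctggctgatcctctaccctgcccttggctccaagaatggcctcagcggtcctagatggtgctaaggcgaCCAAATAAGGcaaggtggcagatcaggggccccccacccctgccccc
Tnnc1, chr14:31208062-31208311, + strand: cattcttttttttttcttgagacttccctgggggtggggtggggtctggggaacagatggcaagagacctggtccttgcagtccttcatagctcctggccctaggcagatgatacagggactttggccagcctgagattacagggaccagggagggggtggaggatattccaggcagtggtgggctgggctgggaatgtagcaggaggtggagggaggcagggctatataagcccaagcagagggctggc
Nppa held 1 T-box and 2 NK2 matches, Myl7 1 NK2 match and 1 CArG box, Actc1 1 CArG box and Tnnc1 none of the 4 motifs. Among 32851 RefSeq promoters, windows of the same length held AGATAA in 9.99%, AGGTGT in 11.8%, AAGTG in 40.7% and a CArG box in 1.47%. A match describes the letters only.

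Calcium handling genes had a median close to that of all genes. Of the 40 genes of the calcium handling and channels list, 32 were counted, with 3 past the fold upward (9.38%, against 4.83% of all genes) and 1 downward (3.12%, against 6.08%), with a median log2 ratio of -0.08 in cardiomyocytes and -0.02 in the other cells. Slc8a1 had a ratio of 0.788 (0.772 to 0.804). Atp2a2, which encodes the SERCA pump that refills the calcium store, had a ratio of 0.737 (0.690 to 0.786), and the L-type channel genes Cacna1c and Cacna1d 0.846 (0.809 to 0.884) and 1.06 (0.992 to 1.14). Pln, which encodes phospholamban, the brake on SERCA, was past the fold downward at 35.3 CPM in wild-type against 18.8 CPM in Usb1-null cardiomyocytes, on 33 and 28 UMIs. Its log2 ratio of -0.76 was under the fold in 4 alternatives, between -0.51 and -0.26. Genes past the fold upward included channels of rhythm. Hcn4, the main pacemaker channel of the sinus node, stood at 52.4 CPM (38.8 to 69.3) in wild-type cardiomyocytes against 85.8 CPM (71.6 to 102) in Usb1-null ones, a ratio of 1.64 (1.17 to 2.32). Kcnj5, a subunit of the acetylcholine-gated potassium channel, stood at 63.1 CPM in wild-type against 114 CPM in Usb1-null cardiomyocytes, a ratio of 1.81 (1.34 to 2.47). In the other cells the log2 ratios of Hcn4 and Kcnj5 were 0.18 and 0.04.

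Cardiac transcription factors were nearly level as a list. Of the 40 genes of the cardiac transcription factors list, 29 were counted, with 2 past the fold upward (6.90%, against 4.83% of all genes) and 2 downward (6.90%, against 6.08%), with a median log2 ratio of 0.08 in cardiomyocytes and -0.03 in the other cells. Gata4 stood at 733 CPM in wild-type against 723 CPM in Usb1-null cardiomyocytes, a ratio of 0.986 (0.895 to 1.09), Myocd at 0.870 (0.810 to 0.935) and Mef2c at 1.07 (0.985 to 1.17). Tbx20, a T-box regulator of chamber muscle, stood at 706 CPM (653 to 762) in wild-type cardiomyocytes against 993 CPM (943 to 1045) in Usb1-null ones, a ratio of 1.41 (1.28 to 1.54). Tbx5, a factor of the inflow and left ventricle, had a ratio of 1.51 (1.25 to 1.82), and neither Tbx20 nor Tbx5 was past the fold with 5 CPM added. Tbx3, a repressor of chamber genes in the conduction system, was past it at 38.5 CPM in wild-type against 65.0 CPM in Usb1-null cardiomyocytes, as was Irx4 of the ventricle at 29.9 CPM in wild-type against 53.6 CPM in Usb1-null cardiomyocytes. Irx4 rests on 28 and 80 UMIs, and its log2 ratio of 0.75 turned to -0.078 when every cardiomyocyte was thinned to 1000 UMIs. Irx4 was also under the fold with 20 CPM added, at 0.56, and without doublets and cells with genes of other types, at 0.53. Tbx3 was under it with 20 CPM added, at 0.54. Prdm16 and Nr2f2 were past the fold downward, at ratios of 0.627 (0.488 to 0.805) and 0.639 (0.525 to 0.778). The log2 ratio of Prdm16, -0.64, lay under the fold in 4 alternatives, between -0.58 and -0.40.

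Among the counted genes of the heart lists, Nppa had the lowest ratio. Nppa, which encodes atrial natriuretic peptide and marks chamber muscle, stood at 627 CPM (577 to 679.7) in wild-type cardiomyocytes against 145 CPM (126 to 165) in Usb1-null ones, a ratio of 0.231 (0.197 to 0.270). It was found in 150 of 494 wild-type and 82 of 451 Usb1-null cardiomyocytes. At 1000 UMIs per cell it was found in 23.4% (19.3 to 27.9) of wild-type cardiomyocytes against 9.38% (6.84 to 12.5) of Usb1-null ones, whose intervals did not overlap, and in the neural cells, not thinned, in 1.31% and 0.430%, whose median depths were 1730.5 and 2803 UMIs. A few cells held much of it: the 10 highest cells held 37.5% of the UMIs in wild-type and 41.7% in Usb1-null, with up to 64 and 17 UMIs in a cell. Without these 10 cells in each library the ratio was 0.216 (0.175 to 0.266). Its log2 ratio was -2.08 in cardiomyocytes and -0.80 in the other cells, and in cardiomyocytes it lay between -2.33 and -1.71 under the alternatives tried.

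The regional lists were mixed. Of the 15 genes of the ventricular list, 10 were counted, with 1 past the fold upward (10.0%, against 4.83% of all genes) and 4 downward (40.0%, against 6.08%), with a median log2 ratio of -0.27 in cardiomyocytes and 0.04 in the other cells. Its median was -0.69 over genes with at least 200 UMIs and -0.16 over those with at least 20. Its 4 lower genes were Myh7, Myl2, Myl3 and Pln, and Irx4 was the higher one. The ventricular gene Mpped2, the most abundant of the list, had a ratio of 0.894 (0.847 to 0.944). Of the 14 atrial and inflow genes, 10 were counted, none was past the fold upward and Myl4, Nr2f2 and Dkk3 were past it downward (30.0%, against 6.08% of all genes), with a median of -0.07. In the trabecular list, 7 of 11 genes were counted, with Sema3a past the fold upward (1 of 7 genes, against 4.83% of all) at a ratio of 1.60 (1.40 to 1.83), and Nppa and Smpx downward (2 of 7, against 6.08%). Nppb, the second natriuretic peptide gene, had a ratio of 0.627 (0.381 to 1.03) on 35 and 35 UMIs. In the outflow tract list, 11 of 15 genes were counted, Fgf10 was past the fold upward at 1.81 (1.21 to 2.75), and Acta2 and the smooth muscle gene Tagln downward, Tagln at 0.307 (0.214 to 0.436), so that 9.09% were upward and 18.2% downward against 4.83% and 6.08% of all genes. The log2 ratio of Fgf10, 0.77, was under the fold without doublets and cells with genes of other types, at 0.51, and with members chosen on thinned counts, at 0.39. Bmp4 and Isl1 of the same list had ratios of 0.795 (0.545 to 1.17) and 0.810 (0.529 to 1.25).

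Genes of the sinus venosus and pacemaker were the only regional list whose summed level was higher. Of the 11 genes of the sinus venosus and pacemaker list, 8 were counted, with 3 past the fold upward (37.5%, against 4.83% of all genes) and 0 downward (0%, against 6.08%), with a median log2 ratio of 0.11 in cardiomyocytes and -0.06 in the other cells. Hcn4 and Tbx3 were among the genes upward, and the summed level had a ratio of 1.22 (1.12 to 1.33). Shox2, which acts in the sinus node, was too low to be counted, with 5 UMIs in wild-type and 32 in Usb1-null, a ratio of 4.01 (1.55 to 13.2). Hcn4 was found in 7.69% of wild-type and 20.6% of Usb1-null cardiomyocytes, but at 1000 UMIs per cell in 5.85% (3.75 to 8.65) of wild-type cardiomyocytes against 8.26% (5.88 to 11.2) of Usb1-null ones, whose intervals overlap. Tbx3 was found in 4.07% (2.34 to 6.53) of wild-type cardiomyocytes against 7.81% (5.50 to 10.7) of Usb1-null ones at that depth, with overlapping intervals. Of the atrioventricular canal list, 7 of 10 genes were counted and Tbx3 alone was past the fold (1 of 7, against 4.83% upward over all genes). Tbx2 and Bmp2 had ratios of 1.08 (0.693 to 1.72) and 0.799 (0.545 to 1.18).

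Signalling genes were mixed, with a median close to that of all genes. Of the 41 genes of the cardiac signalling list, 33 were counted, with 4 past the fold upward (12.1%, against 4.83% of all genes) and 1 downward (3.03%, against 6.08%), with a median log2 ratio of 0.07 in cardiomyocytes and 0.03 in the other cells. Erbb4, the neuregulin receptor of heart muscle, was the most abundant at 6606 CPM in wild-type against 7631 CPM in Usb1-null cardiomyocytes. Its ligand Nrg1, made mainly by the endocardium, was past the fold upward at 71.7 CPM in wild-type against 115 CPM in Usb1-null cardiomyocytes, a ratio of 1.60 (1.199 to 2.15), beside the higher endothelial marker level of the Usb1-null cardiomyocytes, whose part in it was not tested. Insr, the insulin receptor gene, had a ratio of 1.60 (1.27 to 2.01) and Vegfa 1.55 (1.17 to 2.07). Fgf10 was the other gene upward and Nppa the 1 downward. Vegfa was also higher in the other cells, with log2 ratios of 0.60 in cardiomyocytes and 0.86 outside them. Ror1, a Wnt5a receptor, had a ratio of 0.684 (0.576 to 0.811).

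**Figure D3:**
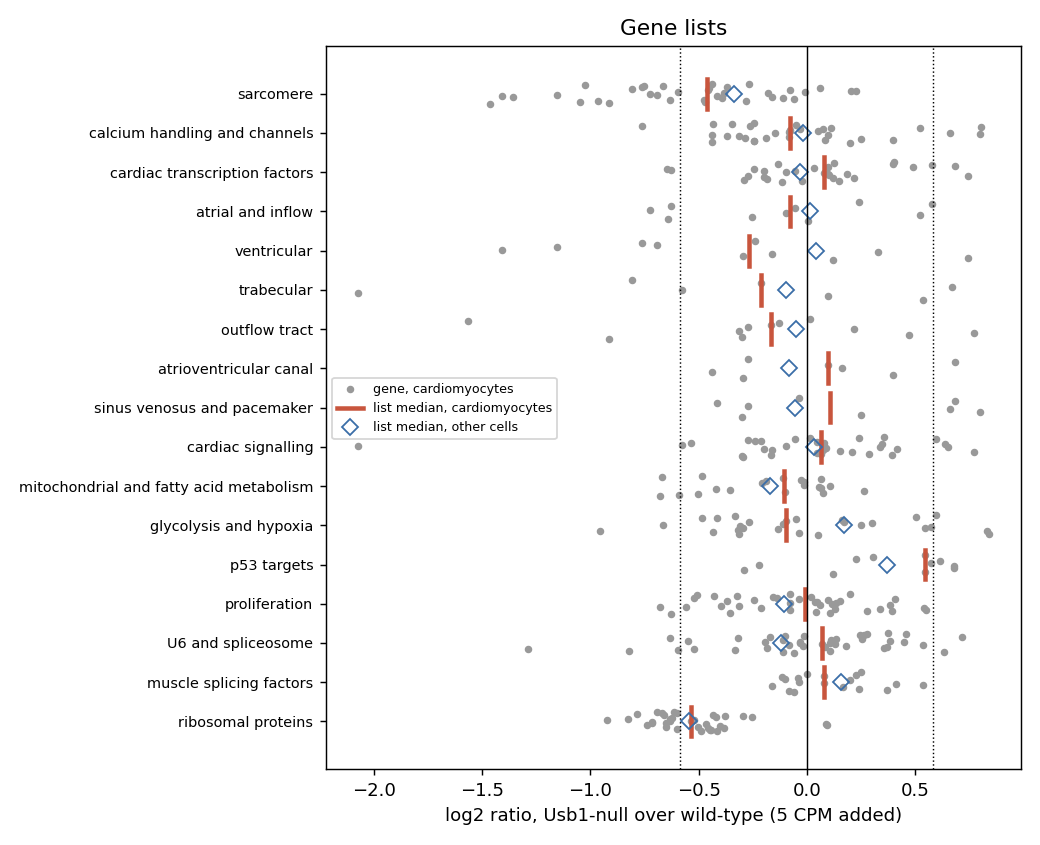
Log2 ratio of Usb1-null over wild-type CPM (5 CPM added) for the counted genes of 17 lists in cardiomyocytes (grey points), with the list median in cardiomyocytes (red bars) and in all other cells (open diamonds); dotted lines mark 1.5-fold. The median of the sarcomere list lies at -0.46 and that of the ribosomal proteins at -0.53, while calcium handling, transcription factors and signalling lie between -0.08 and 0.08.

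Metabolism, stress and growth were examined next. In the glycolysis and hypoxia list, 27 genes were counted, 3 past the fold upward (11.1%, against 4.83% of all genes) and 2 downward (7.41%, against 6.08%), with a median of -0.10 in cardiomyocytes and 0.17 in the other cells. Bnip3 and Ero1l, both induced by low oxygen, had ratios of 1.87 (1.35 to 2.63) and 1.85 (1.36 to 2.53), whereas Slc2a1, the main embryonic glucose transporter, had 0.714 (0.646 to 0.790) and Gapdh 0.508 (0.428 to 0.602). Of the 20 counted genes of mitochondrial and fatty acid metabolism none was past the fold upward and 3 were downward (3 of 20, against 6.08% of all genes), among them Slc25a4, the ATP carrier of muscle mitochondria, at 0.622 (0.519 to 0.745). Of 30 p53 targets, 11 were counted and 3 were past the fold upward, which were Ccng1, Ddb2 and Polk (27.3% of those counted, against 4.83% of all genes), with a median of 0.55 in cardiomyocytes and 0.37 in the other cells. Mdm2, a p53 target that restrains p53, had a ratio of 1.53 (1.12 to 2.11). Ccng1 rests on 17 and 48 UMIs, and its log2 ratio of 0.68 turned to -0.27 when cardiomyocytes were thinned to 1000 UMIs and was under the fold with 20 CPM added, at 0.45. Of 38 counted proliferation genes, none was past the fold upward and 2 were downward (5.26%, against 6.08% of all genes), and Top2a, a marker of dividing cells, had a ratio of 0.798 (0.696 to 0.916). Ribosomal protein genes, all 35 counted, gave 0 calls upward and 17 downward (48.6%, against 6.08% of all genes), with medians of -0.53 and -0.55 in cardiomyocytes and other cells. Among 9 counted genes of the stress that dissociation induces, Hspb1 alone was past the fold, downward (11.1%, against 6.08% of all genes), and the early response gene Fos had a ratio of 1.35 (0.872 to 2.15).

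Splicing genes had medians close to that of all genes. Of 44 genes of the U6 pathway and the spliceosome, 41 were counted, 2 were past the fold upward (4.88%, against 4.83% of all genes) and 4 downward (9.76%, against 6.08%), with a median of 0.07. Lsm6, a subunit of the ring that binds the U6 end, stood at 48.1 CPM in wild-type against 16.8 CPM in Usb1-null cardiomyocytes, a ratio of 0.348 (0.205 to 0.580) on 45 and 25 UMIs, with a log2 ratio of -1.29 in cardiomyocytes and -0.12 in the other cells. Lsm3 and Lsm4 of the same ring were past the fold downward too, at 0.524 (0.338 to 0.811) and 0.637 (0.441 to 0.919), whereas Lsm2, Lsm5, Lsm7 and Lsm8 were not. Larp7, which binds the ends of U6 and 7SK RNA, had a ratio of 1.63 (1.08 to 2.52), and Snrpf, a core Sm protein, 1.76 (1.11 to 2.87). The log2 ratio of Snrpf, 0.72, was under the fold in 3 alternatives, between 0.39 and 0.53. Of 18 counted muscle splicing factors, 0 were past the fold in either direction, against 4.83% of all genes upward and 6.08% downward. Rbm20, which controls titin splicing, and Rbm24 had ratios of 0.931 (0.860 to 1.01) and 0.971 (0.863 to 1.09), and Qki 1.06 (0.997 to 1.13). These libraries count RNA by gene and give no splice form.

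Among all genes with at least 100 UMIs, most of the highest ratios were shared with the rest of the embryo. AY036118 and Gm42418, which lie on opposite strands of the same interval of chromosome 17, stood at ratios of 4.67 (4.33 to 5.04) and 4.01 (3.83 to 4.20), with log2 ratios of 2.22 and 2.00 in cardiomyocytes and 2.36 and 2.23 in the other cells. The same held for Lars2 (1.98 and 2.02), Xaf1 (1.70 and 1.41), Cmss1 (1.67 and 1.67), Camk1d (1.47 and 1.37) and the histone gene Hist1h1e (1.47 and 1.45). The 1700021F13Rik gene stood apart at 23.5 CPM in wild-type against 84.5 CPM in Usb1-null cardiomyocytes, a ratio of 3.59 (2.27 to 5.93), with log2 ratios of 1.65 and 0.19. It lies at chr5:119805329-119807869, - strand of GRCm38, beside Tbx5 at chr5:119832668-119885219, + strand, whose own ratio is given above. The lowest were the globin genes Hbb-y and Hba-x, Nppa, Tagln, Acta1, Myh7, Hspb1 and mt-Co3. Hbb-y had a ratio of 0.0875 (0.0620 to 0.121) and log2 ratios of -3.31 in cardiomyocytes and -2.47 in the other cells, beside the lower erythroid level given above.

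Among genes with at least 100 UMIs in cardiomyocytes, those whose ratio exceeded that in the other cells most were Cacna2d3, Negr1, 1700021F13Rik, Gm13938 and Tnnc1. Tnnc1 is a rule gene that helped to sort cardiomyocytes from other cells, so its place here is a description only. Negr1, a neuronal adhesion protein, stood at 69.5 CPM in wild-type against 196 CPM in Usb1-null cardiomyocytes, a ratio of 2.82 (2.15 to 3.76), with log2 ratios of 1.43 and 0.04. Gm13938 lies within Ttn on the opposite strand and had a ratio of 2.37 (1.59 to 3.62), whereas Ttn had 1.08 (1.04 to 1.12). At the other end were Nppa, Tnni3k, Dclk1, Pappa and Akap6. Tnni3k, a kinase that binds cardiac troponin I, had a ratio of 0.480 (0.324 to 0.707), and its log2 ratio was -0.96 in cardiomyocytes and 0.02 outside them. Akap6, which anchors kinases at the ryanodine receptor, had a ratio of 0.576 (0.447 to 0.740), and its log2 ratio of -0.76 was under the fold at -0.54 with members chosen on thinned counts.

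The cardiomyocytes varied among themselves by region. Cells with and without a UMI of a region gene were compared within each library, and each ratio is the level in cells with over that in cells without. Which cells held a UMI depended on depth and on the gene's level, and both differed between the libraries, so the ratios of the libraries stand side by side and are not compared. Cells with Myl2 were 45.3% of wild-type and 39.2% of Usb1-null cardiomyocytes. Prdm16, a factor of compact ventricular muscle, was higher in them by 4.69 (2.97 to 7.71) in wild-type against 4.61 (3.06 to 7.14) in Usb1-null, and Myh7 by 2.56 (2.26 to 2.90) in wild-type against 2.47 (2.12 to 2.88) in Usb1-null. Mpped2 was higher by 2.45 (2.23 to 2.68) in wild-type against 2.39 (2.23 to 2.57) in Usb1-null. Vsnl1, an inflow gene, had ratios of 0.0390 (0.0125 to 0.0934) in wild-type against 0.104 (0.0557 to 0.178) in Usb1-null, Nr2f2 of 0.254 (0.177 to 0.359) in wild-type against 0.314 (0.215 to 0.448) in Usb1-null and Angpt1, an atrial ligand of the Tie2 receptor, of 0.243 (0.206 to 0.286) in wild-type against 0.472 (0.419 to 0.531) in Usb1-null.

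In cells with Nr2f2, 22.9% and 27.1% of the cardiomyocytes, Myh7 and Mpped2 were lower and atrial genes went both ways. Nr2f1, the paralogue of Nr2f2, was higher in these cells by 3.45 (2.48 to 4.84) in wild-type against 2.47 (1.91 to 3.21) in Usb1-null. Angpt1 was higher by 1.78 (1.57 to 2.03) in wild-type against 1.84 (1.66 to 2.03) in Usb1-null. Myl4 had ratios of 0.508 (0.413 to 0.621) in wild-type against 0.616 (0.506 to 0.745) in Usb1-null. In the same order Myl7 had 0.559 (0.461 to 0.674) and 0.830 (0.679 to 1.01), and Tbx5 1.20 (0.855 to 1.67) and 0.901 (0.721 to 1.12). Myh7 had ratios of 0.203 (0.165 to 0.246) in wild-type against 0.339 (0.275 to 0.415) in Usb1-null, and Mpped2 of 0.279 (0.244 to 0.317) in wild-type against 0.314 (0.284 to 0.347) in Usb1-null. Cells with a UMI of a gene were deeper than those without, with medians of 1916 against 1476 UMIs in wild-type and 3727.5 against 2598 in Usb1-null for Nr2f2.

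**Figure D4:**
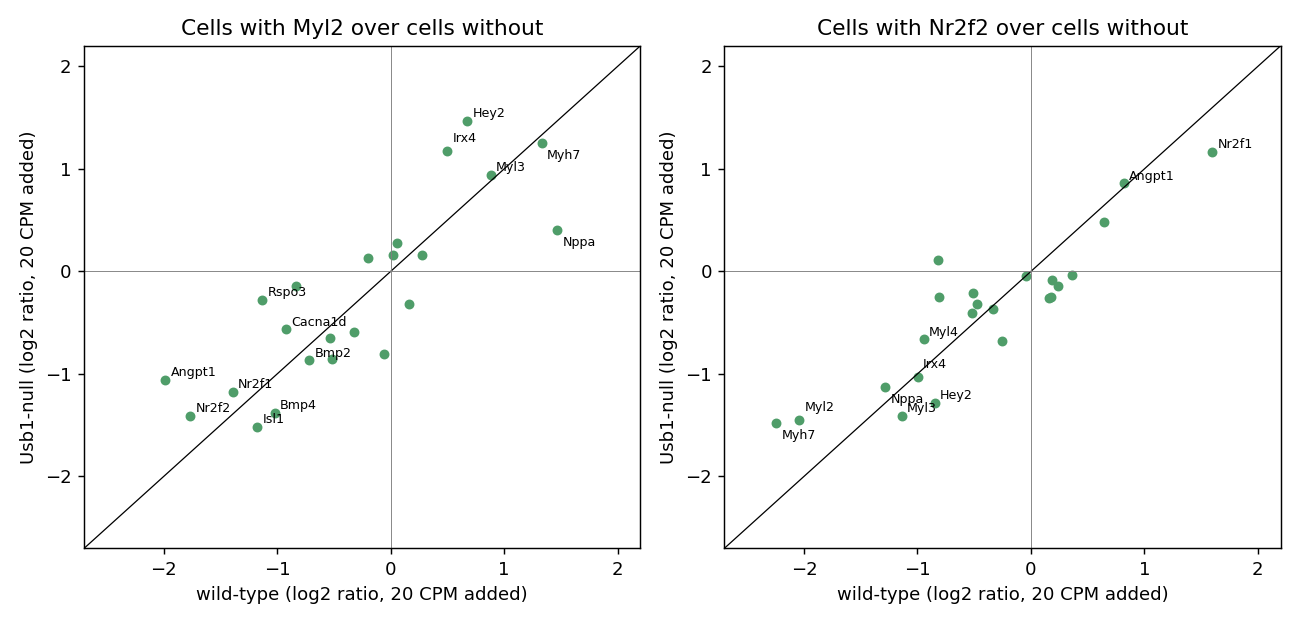
Log2 ratio (20 CPM added) of region genes in cardiomyocytes with over those without a UMI of Myl2 (left) or Nr2f2 (right), in wild-type (x axis) and Usb1-null (y axis); the diagonal is drawn as a guide. Myh7 and Myl3 lie at the upper right in the Myl2 plot and at the lower left in the Nr2f2 plot, so that in each library they were higher in cells with Myl2 and lower in cells with Nr2f2.

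Rarer cells were split in the same way. Cells with Hcn4, 38 wild-type and 93 Usb1-null, had higher Smoc2, by 8.82 (4.02 to 19.4) in wild-type against 8.67 (3.91 to 21.1) in Usb1-null, and higher Vsnl1, by 2.91 (1.90 to 4.35) in wild-type against 1.63 (1.205 to 2.19) in Usb1-null. Smoc2 rests on 30 and 34 UMIs. Of the chamber peptide genes, Nppa had ratios of 2.42 (1.97 to 2.95) in wild-type against 1.15 (0.833 to 1.56) in Usb1-null, and Nppb of 2.21 (0.813 to 5.17) in wild-type against 2.63 (1.26 to 5.39) in Usb1-null. Tbx3 had ratios of 1.42 (0.432 to 3.69) in wild-type against 0.483 (0.247 to 0.871) in Usb1-null in them. Cells with Isl1, 32 and 36, had higher Nrp2, a semaphorin receptor of the outflow, by 3.31 (2.39 to 4.53) in wild-type against 2.91 (2.22 to 3.78) in Usb1-null, and higher Bmp4, by 2.82 (1.35 to 5.48) in wild-type against 3.80 (2.15 to 6.51) in Usb1-null, whereas Myl2 had ratios of 0.220 (0.113 to 0.387) in wild-type against 0.133 (0.0486 to 0.293) in Usb1-null. Cells with Bmp4, 35 and 45, likewise had higher Nrp2, by 2.60 (1.87 to 3.56) in wild-type against 3.17 (2.45 to 4.07) in Usb1-null, and lower Nppa, at 0.171 (0.0907 to 0.296) in wild-type against 0.137 (0.0371 to 0.357) in Usb1-null. In these cells Smoc2 had ratios of 7.56 (3.44 to 16.6) in wild-type against 0.455 (0.0528 to 1.78) in Usb1-null. Cells with Tbx3, 32 and 79, had higher Rspo3, by 2.17 (1.25 to 3.57) in wild-type against 2.28 (1.68 to 3.07) in Usb1-null. Nppa had ratios of 0.0367 (0.00443 to 0.133) in wild-type against 0.477 (0.289 to 0.750) in Usb1-null in the cells with Tbx3, and Slit2 0.143 (0.0523 to 0.314) in wild-type against 0.317 (0.225 to 0.435) in Usb1-null. In the cells with Nppa, 150 and 82, the transient outward potassium channel Kcnd2 was higher by 2.55 (1.59 to 4.13) in wild-type against 2.91 (2.02 to 4.18) in Usb1-null and Rspo3 lower, at 0.113 (0.0406 to 0.255) in wild-type against 0.319 (0.179 to 0.533) in Usb1-null.

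Values were also taken within classes of cells that held Myl2, Nr2f2, both or neither, a grouping chosen after the values above had been seen. Both genes were lower in Usb1-null and detection moved with depth, so a class need not hold the same kind of cells in both libraries, and the ratios below describe the cells so picked and nothing more. Nppa had a ratio of Usb1-null over wild-type of 0.178 (0.140 to 0.224) in the cells with Myl2 alone, where it stood at 1064 CPM in wild-type against 189 CPM in Usb1-null. It was 0.223 (0.131 to 0.368) in the cells with Nr2f2 alone and 0.477 (0.352 to 0.646) in those with neither. Actc1 was lower in all 3 groups, at 0.521 (0.458 to 0.592), 0.479 (0.398 to 0.575) and 0.431 (0.371 to 0.501) in the same order. Myh7 had ratios of 0.380 (0.337 to 0.428), 0.631 (0.410 to 0.974) and 0.376 (0.315 to 0.448). Tbx20 had 1.07 (0.921 to 1.26) in the cells with Myl2 alone, 1.87 (1.51 to 2.34) in those with Nr2f2 alone and 1.52 (1.30 to 1.78) in those with neither. Sema3a had 1.30 (1.04 to 1.63), 1.81 (1.34 to 2.48) and 1.77 (1.40 to 2.26). The cells with both, 24 wild-type and 25 Usb1-null, gave a ratio of 0.276 (0.138 to 0.523) for Nppa. At 1000 UMIs per cell, 32.6% (28.0 to 37.4) of wild-type cardiomyocytes and 21.7% (17.9 to 25.8) of Usb1-null ones held Myl2 alone and 15.3% (11.9 to 19.2) and 9.60% (7.03 to 12.7) Nr2f2 alone. These shares do not count ventricular or atrial cells.

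**Figure D5:**
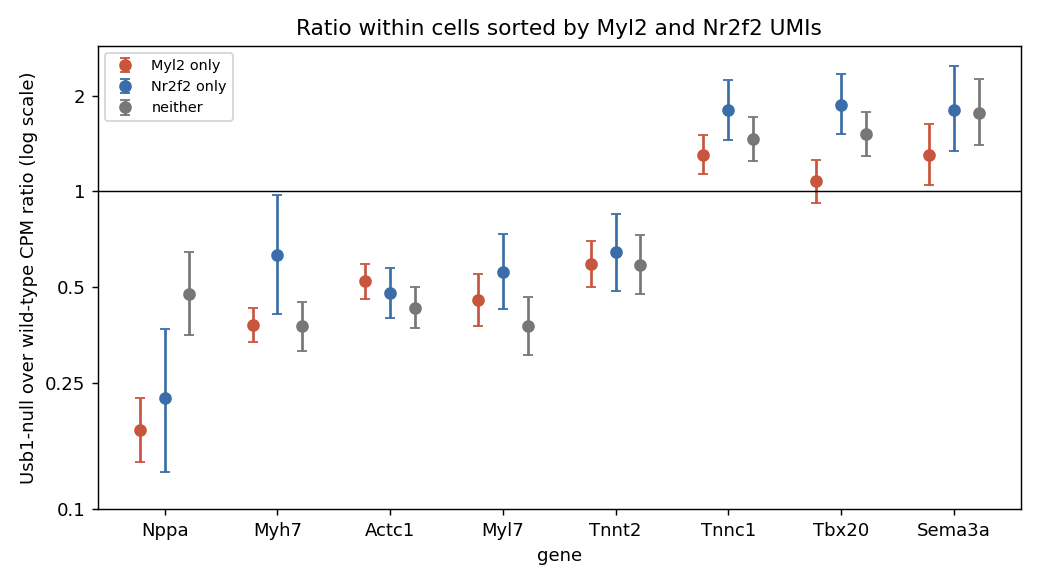
Ratio of Usb1-null over wild-type CPM (log scale) for 8 genes in cardiomyocytes with Myl2 but not Nr2f2, with Nr2f2 but not Myl2, and with neither; points are the ratios and bars their 95% intervals for counting error. Nppa, Myh7, Actc1, Myl7 and Tnnt2 lie below 1 in all 3 groups, while Tnnc1 and Sema3a lie above it and the interval of Tbx20 in cells with Myl2 alone spans it. Myl7, Tnnt2 and Tnnc1 are rule genes and are shown as a description only.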

How the data were processed

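Single cells of whole mouse embryos at day 9.5 were counted in 2 libraries, 1 wild-type and 1 Usb1-null. The counts, UMIs per gene and barcode as deposited, were made by the authors with Cell Ranger, version 6.1.2 by the file headers and 2.1.1 by the submitters' processing notes, on build mm10. Annotation release, intron counting and strand setting are unstated in those sources. The study's stated wild-type cell number is below the deposited barcodes, whereas its null number equals them.

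Barcodes with 200 to 6000 genes were kept, and UMIs were summed over cardiomyocytes per library and scaled to CPM. Ratios carry exact conditional binomial intervals, levels exact Poisson and shares Clopper-Pearson intervals, at 95%. Log2 ratios had 5 CPM added, or 20 CPM between cells of 1 library. A gene was counted with at least 50 UMIs in cardiomyocytes and was past the fold at 1.5. Doublets were scored by Scrublet in scanpy 1.11.5 with 10% expected, and kept except in an alternative. Scripts used Python 3.11.15, numpy 2.4.6, scipy 1.17.1 and pandas 2.3.3, and were tested on simulated data. Coordinates are from GENCODE for GRCm38.

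The members and the gene lists were chosen with earlier results of these data known. Named genes were the rule genes; in every list the most abundant, the highest and the lowest gene; the 10 most enriched genes outside the rule; the 8 highest and 8 lowest ratios among genes with at least 100 UMIs, leaving out Xist and Y-linked genes; the 5 highest and 5 lowest differences from the other cells among the same genes; the 5 genes at each end of each split; and Usb1 and Tut1. Other genes were named after their values had been seen, and some genes under the rule are not reported here. Alternatives were other rules, depths, pseudocounts, minimum UMIs and weights per cell, and the removal of doublets; 2 rules on thinned counts and the centring by gene length were added after seeing the data.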

Additional observations from a re-analysis of the deposited data

Results flagged for a closer look

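Sema3a, Akap6 and Cacna2d3 lay on opposite sides of equality in cardiomyocytes and in the other cells of the embryo, with intervals that did not reach 1 in either. They were taken from the genes named in the text that were past the fold in cardiomyocytes and were no rule genes. Without these conditions Pappa, Tgfb2, Cacna2d2 and the rule genes Tnnc1 and Ryr2 lay on opposite sides too, with intervals that did not reach 1. For the rule genes this only describes cells sorted on them. Sema3a, a secreted guidance factor, had a ratio of Usb1-null over wild-type of 1.60 (1.40 to 1.83) in cardiomyocytes and 0.936 (0.910 to 0.962) in the other cells, while in endothelial cells alone its log2 ratio was 0.50, against 0.67 in cardiomyocytes. Akap6, a kinase anchor, had 0.576 (0.447 to 0.740) and 1.11 (1.03 to 1.20). Cacna2d3, a calcium channel subunit, had 1.95 (1.25 to 3.13) and 0.622 (0.575 to 0.673). The differences between cardiomyocytes and other cells were not tested, since each genotype had 1 library.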

How the results depend on the processing

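No paired analysis was possible because each genotype had 1 library, and no test was made. The share of cardiomyocytes, with a ratio of 1.06, turned to 0.843 at 500 UMIs per cell and 0.885 at 1000. The 378 genes past the fold upward became 145 with 20 CPM added, 758 and 83 with minimums of 20 and 200 UMIs, 887 at 1000 UMIs per cell, 651 without doublets and cells with genes of other types, and 598 with members chosen on counts thinned to 500 UMIs. The 476 downward became 241, 774, 127 and 807 under the first 4 of these and 780 under the last. The ribosomal median of -0.53 became -0.26 when centred by gene length, -0.66 without doublets and cells with genes of other types, -0.72 with equal weight per cell and -0.80 with members chosen on thinned counts. The endothelial median of 0.38 turned to -0.19 without doublets and cells with genes of other types and -0.23 with members chosen on thinned counts. At 1000 UMIs per cell, Irx4 turned to -0.078, Ccng1 to -0.27 and Tek to -0.14 on the log2 scale. Of 47 named genes past the fold, 31 were past it in every alternative run and 16 were under it in at least 1, among them Prdm16, Fgf10, Tbx3, Pln and Nkx2-5; genes named after their values had been seen were not rerun. Fewer UMIs remain in these thinned sets, and other causes were not tested. The ventricular median of -0.27 lay between -0.69 and -0.16 and the sinus venosus median of 0.11 between 0.05 and 0.43, while medians on both sides of 0 were found for the atrioventricular canal (-0.14 to 0.18), signalling (-0.01 to 0.18), proliferation (-0.19 to 0.09), U6 and spliceosome (-0.03 to 0.15), mitochondrial and fatty acid metabolism (-0.16 to 0.05), glycolysis and hypoxia (-0.17 to 0.04), dissociation stress (-0.48 to 0.15) and splanchnic mesoderm (-0.20 to 0.11) lists. The sarcomere median lay between -0.55 and -0.41 under every alternative run, that of p53 targets between 0.36 and 0.59, and Nppa between -2.33 and -1.71. Precision is set by UMIs summed over 945 cells, and differences between embryos were not measured.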
